A study of Mus musculus with 14 samples.

Results

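Of the 12 cultured Eµ-Myc lymphoma lines, 5 carried high levels of Cdkn2a RNA and 7 carried little or none, and these 2 sets were compared across all other genes. A line was placed in the Cdkn2a-high set at 50 counts per 1000000 (CPM) or more and in the Cdkn2a-low set under 20 CPM, where CPM is a gene's count over the library total. All 12 lines fell into a set and 0 lay between the limits, out of 14 libraries in the study. The sets were selected on this measured level, so Cdkn2a is described without a test. The Cdkn2a-high lines were 115 (95.7 CPM), 136 (146 CPM), 517 (229 CPM), 524 (183 CPM) and 801 (215 CPM). The Cdkn2a-low lines were 309 (2.20 CPM), 504 (0.577 CPM), 505 (9.66 CPM), 506 (0 counts), 549 (1 count), 649 (3.34 CPM) and 688 (1 count). The members nearest to the limits were line 115 on the high side and line 505 on the low side.

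Each line is labelled as malignant B cells of genotype WT, from its own E-mu-MycTg/+ mouse, in which an immunoglobulin heavy chain enhancer drives a Myc transgene. The transgene was thus shared by both sets. Lines were cultured for 24 h without treatment, in a medium with serum and added L-asparagine, and each gave 1 library. Line 506 was also engrafted into wild-type C57BL/6 mice, and 1 lymphoma each was taken from the lymph node after L-asparaginase or vehicle (NaCl 0.9%), given from day 7. Replicates are therefore lines of different mice, and p-values measure the spread between lines. In these bulk libraries, fewer cells expressing a gene and less RNA per cell cannot be told apart.

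Cdkn2a encodes 2 tumour suppressors from different first exons. The ARF protein binds and inhibits Mdm2, the ubiquitin ligase that degrades p53, and the p16 protein inhibits Cdk4 and Cdk6, which act on the retinoblastoma protein. Myc is known to activate ARF, p53 is known to repress it, and Eµ-Myc lymphomas are known to lose ARF or p53 often. Counts per gene pool the ARF and p16 transcripts, so the level that chose the lines cannot be assigned to either. The promoters of both starts are shown because both feed that level. They run from 250 bases before to 50 after a RefSeq start, on GRCm38.p6, minus strand, with capitals for a match to an E2F site.

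ARF start, chr4:89294570-89294869: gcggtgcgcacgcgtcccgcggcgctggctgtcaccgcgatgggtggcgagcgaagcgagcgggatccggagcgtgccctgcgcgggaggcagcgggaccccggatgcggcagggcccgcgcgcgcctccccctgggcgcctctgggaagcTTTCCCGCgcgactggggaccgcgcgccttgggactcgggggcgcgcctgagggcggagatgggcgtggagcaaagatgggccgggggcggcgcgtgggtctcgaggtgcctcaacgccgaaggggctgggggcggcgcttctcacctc
p16 start, chr4:89282143-89282442: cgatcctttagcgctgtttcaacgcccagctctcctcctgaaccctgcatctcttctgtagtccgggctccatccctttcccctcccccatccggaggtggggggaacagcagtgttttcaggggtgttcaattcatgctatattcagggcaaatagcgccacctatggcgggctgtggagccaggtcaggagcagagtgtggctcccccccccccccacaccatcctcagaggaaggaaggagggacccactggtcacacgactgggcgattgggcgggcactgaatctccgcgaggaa

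From here on, CPM are scaled by TMM factors, which correct for differences in library composition, and a log2 fold change is Cdkn2a-high over Cdkn2a-low. The threshold is an adjusted p under 0.05 in edgeR, and calls by DESeq2 are named as such. The search covered the E2F forms TTTCCCGC, TTTCGCGC, TTTGCCGC and TTTGGCGC on both strands. The ARF window held 1 match, to TTTCCCGC, and the p16 window held 0. Of 32851 RefSeq windows of this length, 1.07% held TTTCCCGC and 2.26% held any of the forms. The windows were 77% G and C for ARF and 60.3% for p16, against a median of 52.7% over all windows. E2f1, a transcription factor of the Rb pathway that is known to activate ARF, had 43.1 to 61.8 CPM in Cdkn2a-high lines and 60.0 to 78.4 CPM in Cdkn2a-low lines. Its log2 fold change was -0.33 (SE 0.11, adjusted p = 0.36, edgeR), which did not pass the threshold.

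Some libraries stood apart or resembled each other. Lines 506, 549 and 688, all Cdkn2a-low, shared their most abundant heavy and light chain segments, Ighv5-17 and Igkv9-120, of which the light chain segment also led in line 649. Their Spearman rho over the 500 most variable genes was 0.793 to 0.884, against a highest value of 0.693 over the other 63 pairs. Because labels name a different mouse for each, the tests of genes and the counts over gene lists were repeated without lines 549 and 688. This left 5 against 5 lines, and the repeat is reported below for some results only. The comparisons of total counts, of genes detected and of chromosomes were made with all lines only. They thus count lines 506, 549 and 688 as separate replicates. Line 549 also carried Ighv13-2 at 79.8 CPM, the leading segment of line 115 (283 CPM) and the second of line 136 (22.4 CPM). The second light chain segment of line 549, Igkv5-39 (397 CPM), was also the second of line 136 (116 CPM). Igkv9-120 made up 50.5% of the light chain segment level in line 549, against 92.1% in line 506 and 98.1% in line 688. Whether the library of line 549 holds more than 1 clone was not tested. Total counts did not differ detectably, at 29679445 to 31974303 in Cdkn2a-high and 24597230 to 32614751 in Cdkn2a-low lines (p = 0.15, exact two-sided permutation test). The number of genes detected with 1 count or more was 17397 to 18714 in Cdkn2a-high and 17050 to 17927 in Cdkn2a-low lines (p = 0.010, exact two-sided permutation test), and the part of this difference in the results was not tested. Pan-B cell markers were present in every line, with summed levels of 4757 to 6052 CPM in Cdkn2a-high and 4834 to 6678 CPM in Cdkn2a-low lines.

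Around the locus on chromosome 4 (mm10), the genes next to Cdkn2a showed which low lines lacked more than Cdkn2a RNA. Mtap (chr4:89137122-89181081), the enzyme that salvages methionine from methylthioadenosine, had 82.3, 288, 140, 113 and 129 CPM in the Cdkn2a-high lines 115, 136, 517, 524 and 801. In the Cdkn2a-low lines it had 1 count in line 506, 0 counts in line 688, 56.6 CPM in line 549 and 92.0 to 171 CPM in lines 309, 504, 505 and 649. The sets overlapped, and 2 of the 7 low lines stood at or under the level that a count of 0 allows (3 counts, 0.0920 to 0.122 CPM before TMM scaling in the low libraries). Mtap did not differ between the sets (log2 fold change 0.82, SE 1.16, adjusted p = 0.84, edgeR). Farther along the chromosome, Klhl9 had 23.3 to 97.3 CPM in Cdkn2a-high and 49.5 to 72.8 CPM in Cdkn2a-low lines, and Focad had 21.1 to 111 CPM and 34.4 to 48.6 CPM in these sets. Both were thus present in all 12 lines, 506 and 688 included.

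Cdkn2b (chr4:89306289-89311032), whose product p15 also inhibits Cdk4 and Cdk6, was low in all lines. It had 0.319, 0.396, 0.967, 4.46 and 0.815 CPM in Cdkn2a-high lines 115, 136, 517, 524 and 801. In Cdkn2a-low lines the lowest, median and highest values were 0, 0 and 0.403 CPM. Line 504, at 0.403 CPM, lay above lines 115 and 136, so the sets overlapped. The log2 fold change was 3.64 (SE 1.06, unadjusted p = 0.0049, adjusted p = 0.31, edgeR) and did not pass the threshold. Over the other inhibitors of cyclin-dependent kinases, Cdkn2c, Cdkn2d, Cdkn1a, Cdkn1b and Cdkn1c, 0 of 5 had an unadjusted p under 0.05, a limit that 5.92% of all genes passed as higher and 4.89% as lower in Cdkn2a-high lines. The median of the list with Cdkn2b was 0.24.

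**Figure D1:**
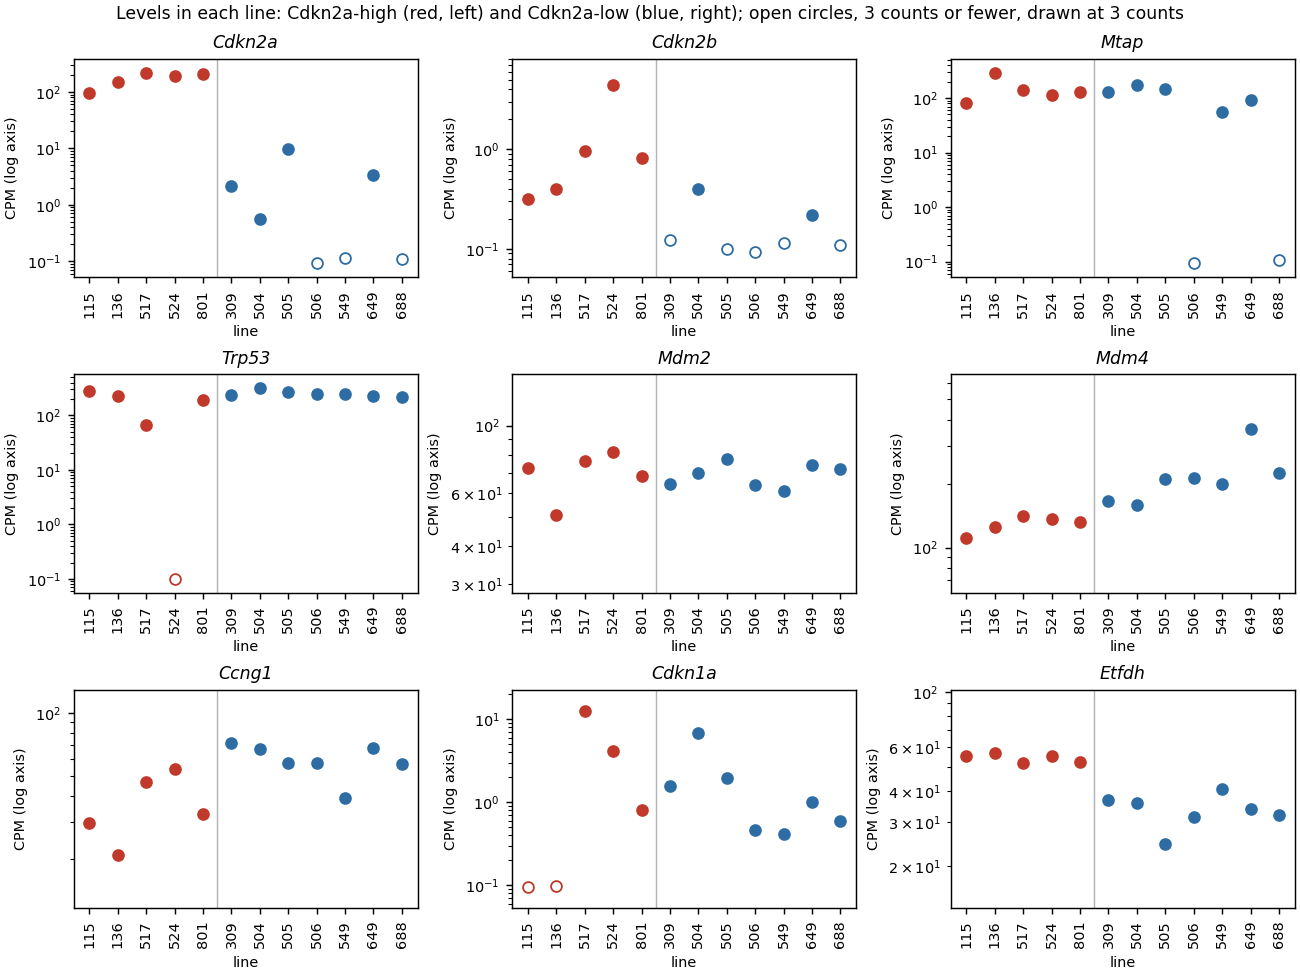
CPM (log axis) in each line for Cdkn2a, its neighbours, genes of the p53 pathway and Etfdh, a mitochondrial oxidoreductase gene; Cdkn2a-high lines are red and on the left, Cdkn2a-low lines blue and on the right, and open circles mark 3 counts or fewer, drawn at the level of 3 counts. Trp53 is near 0 in line 524 and Mtap in lines 506 and 688, whereas Mdm4 is lower and Etfdh higher in every Cdkn2a-high line than in any Cdkn2a-low line.

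The p53 pathway lies downstream of ARF, so the comparison asked whether its genes differed with the Cdkn2a level. Trp53, the gene of p53, had 275, 230, 67.4, 0.0703 and 193 CPM in Cdkn2a-high lines 115, 136, 517, 524 and 801. In Cdkn2a-low lines its lowest, median and highest values were 221, 248 and 312 CPM. Line 524 held 2 Trp53 counts, and lines 517 and 801 also had less than any low line, while lines 115 and 136 lay within the range of the low lines. Wrap53, the neighbour of Trp53 on the other strand, had 0 counts in line 524 and 18.6 to 26.6 CPM in the other 11 lines. On the deposited coordinates, Wrap53 (chr11:69561758-69580255) and Trp53 (chr11:69580359-69591873) do not overlap. The strand setting of the counting is not given in the sources used here. Over the sets, Trp53 had a log2 fold change of -0.72 (SE 0.86, adjusted p = 0.80, edgeR), which did not pass the threshold, and -0.40 (SE 0.29) without line 524. Whether Trp53 RNA carries mutations was not measured.

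Mdm4, which binds p53 and inhibits its activity, was lower in every Cdkn2a-high line. It had 110.5, 125, 141, 137 and 132 CPM in Cdkn2a-high lines 115, 136, 517, 524 and 801, against a lowest, median and highest value of 159, 211 and 364 CPM in Cdkn2a-low lines. The sets did not overlap, and line 649 was the highest of the low lines. The log2 fold change was -0.77 (SE 0.19, unadjusted p = 0.0013), but the adjusted p was 0.26 (edgeR). Mdm2, the ARF target and itself a p53 target, had 72.4, 50.7, 76.6, 81.9 and 68.5 CPM in Cdkn2a-high lines 115, 136, 517, 524 and 801. In the Cdkn2a-low lines it had 60.8 to 77.6 CPM with a median of 69.8 CPM, so the sets overlapped (log2 fold change 0.02, SE 0.12, adjusted p = 0.96, edgeR).

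Among 40 listed p53 targets, 30 could be tested, and 0 passed the adjusted threshold. At an unadjusted p under 0.05, 0 were higher and 4 were lower in Cdkn2a-high lines, against 5.92% of all genes tested that were higher and 4.89% that were lower. The median log2 fold change was -0.12 over the list and 0.0019 over all genes tested. Those 4 were Ccng1, a cyclin G gene induced by p53, Ercc5, a nuclease of nucleotide excision repair, Dcxr, a carbonyl reductase, and Pidd1, a death domain protein. Ccng1 had 29.6, 20.9, 46.8, 53.9 and 32.7 CPM in Cdkn2a-high lines 115, 136, 517, 524 and 801, against 38.9 to 71.6 CPM with a median of 57.7 CPM in Cdkn2a-low lines. The sets overlapped through line 549 (38.9 CPM), and the log2 fold change was -0.70 (SE 0.23, adjusted p = 0.35, edgeR). Cdkn1a, the inhibitor p21 and a classical p53 target, was low and varied within both sets. It had 0.0957, 0.0989, 12.6, 4.11 and 0.815 CPM in the Cdkn2a-high lines and 0.409 to 6.91 CPM in the Cdkn2a-low lines. The lines 517 and 524, with the least Trp53 RNA, had the most Cdkn1a RNA of the high set. Leaving out both, an alternative chosen after seeing the data, turned the Cdkn1a log2 fold change to -2.44 (adjusted p = 0.43), against 0.94 (SE 1.10, adjusted p = 0.80) with all lines (edgeR).

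Of the genes on the p16 side, Rb1, the retinoblastoma gene, had 29.0 to 97.1 CPM in Cdkn2a-high and 35.6 to 89.2 CPM in Cdkn2a-low lines (log2 fold change 0.01, SE 0.28, adjusted p = 0.99, edgeR). Cdk6 had 135, 200, 123, 6.57 and 119 CPM in Cdkn2a-high lines 115, 136, 517, 524 and 801. In Cdkn2a-low lines it had 56.2, 112, 81.5, 0.230, 34.8, 0.0939 and 0.0377 CPM in lines 309, 504, 505, 506, 549, 649 and 688. Lines 649 and 688 were thus at 3 counts or fewer, and the sets overlapped (log2 fold change 1.52, SE 1.35, adjusted p = 0.72, edgeR). Ccnd2, a D cyclin, ranged over 0.0319 to 68.5 CPM in Cdkn2a-high and 0.0372 to 168 CPM in Cdkn2a-low lines (log2 fold change -0.46, SE 1.84, adjusted p = 0.95, edgeR). In the list of D cyclins, their kinases and the Rb pathway, 0 of 22 genes passed. At an unadjusted p under 0.05, 2 of them, E2f1 and Rbl2, were lower, against 4.89% of all genes tested. The median of this list was -0.05.

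Polycomb proteins repress the locus in many cell types. Of 26 tested genes of Polycomb and other regulators of Cdkn2a, 0 passed the adjusted threshold, and the median was -0.06. At an unadjusted p under 0.05, 1 was higher and 4 were lower, against 5.92% and 4.89% of all genes tested. The 1 higher was Kdm6b, a demethylase of the Polycomb mark, at 48.5 to 126 CPM in Cdkn2a-high and 39.2 to 59.7 CPM in Cdkn2a-low lines. Without line 524, 0 of the list were higher and 3 lower at that limit, and the same counts held without lines 549 and 688. Ring1, a subunit of Polycomb complex 1, had the smallest p of the list (log2 fold change -0.71, SE 0.21, adjusted p = 0.31, edgeR). Bmi1, the classical repressor of Cdkn2a, had 116, 80.5, 62.5, 35.0 and 156 CPM in Cdkn2a-high lines 115, 136, 517, 524 and 801, against 69.0 to 299 CPM with a median of 129 CPM in Cdkn2a-low lines. The sets overlapped (log2 fold change -0.80, SE 0.41, adjusted p = 0.52, edgeR). Ezh2, the methyltransferase that writes the mark, had 162 to 299 CPM in Cdkn2a-high and 182 to 301 CPM in Cdkn2a-low lines (log2 fold change -0.06, SE 0.18, adjusted p = 0.93, edgeR).

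Across 13106 tested genes, 1 gene rose and 1 gene fell in Cdkn2a-high lines at an adjusted p under 0.05 (edgeR's quasi-likelihood test), which is 0.00763% of genes in each direction. At an unadjusted p under 0.05, 776 genes (5.92%) were higher and 641 (4.89%) lower. Without lines 549 and 688, 0 of 12904 genes passed (0%) in edgeR, 560 (4.34%) were higher and 563 (4.36%) lower at that unadjusted limit. DESeq2 gave 123 calls in these 10 lines. With all lines, DESeq2 called 108 genes higher and 96 lower, together 1.56% of genes, and both genes called by edgeR were among them. The number of called genes thus depended on the tool.

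The gene that rose was Glt1d1 (chr5:127632262-127709374), a glycosyltransferase domain gene of low level, outside the rule for named genes and named after its values were seen because it was the 1 gene that rose. It had 0.542, 2.64, 0.469, 4.92 and 0.362 CPM in Cdkn2a-high lines 115, 136, 517, 524 and 801, and 1 count over all 7 Cdkn2a-low lines, in line 505. Over the summed counts of the sets, 265 against 1, the ratio was 345, with an exact 95% interval of 61.4 to 13679 for counting error only. Glt1d1 passed the filter on low counts through the Cdkn2a-high lines alone, so a gene with this pattern could enter the test only by being higher in that set, and its test and ratio are to be read as a description. The adjusted p was 0.048 (edgeR), and 0.32 without lines 549 and 688. The call was kept without line 115, 524 or 801 and lost in the other 9 repeats that each left out 1 line, with an adjusted p of up to 0.30 without line 505. Without lines 549 and 688, Ccdc92 had the smallest p, with an adjusted p of 0.068 that missed the threshold (edgeR). It had 13.8, 13.6, 10.6, 9.28 and 3.35 CPM in Cdkn2a-high lines 115, 136, 517, 524 and 801, against 4.62 CPM in line 549 and 0.134 to 0.696 CPM in the other 6 Cdkn2a-low lines.

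**Figure D2:**
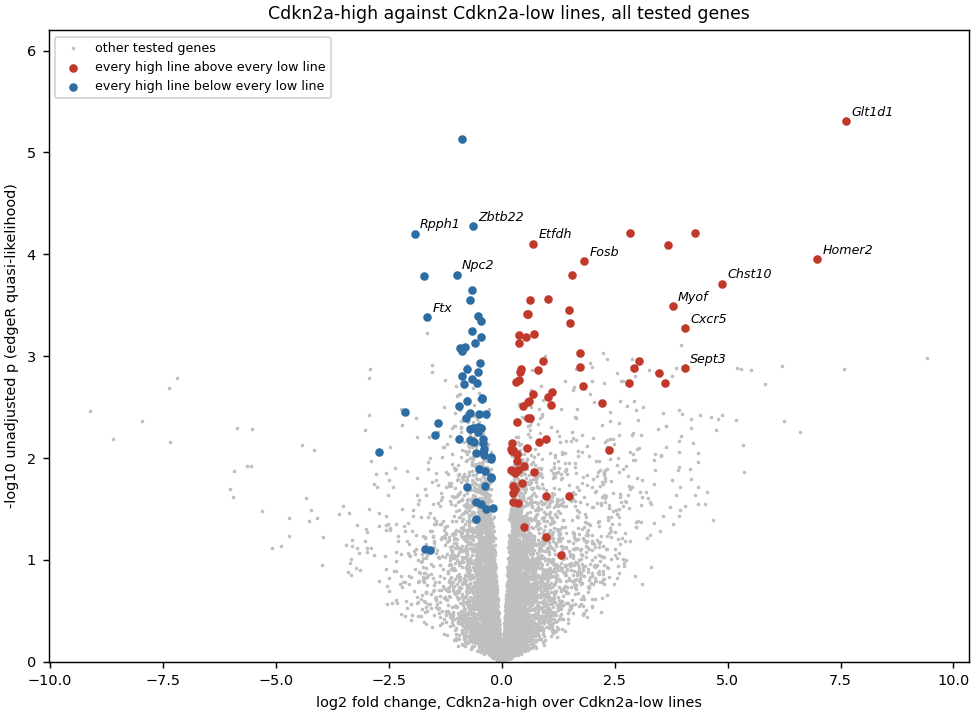
Each point is 1 of the 13106 tested genes, by log2 fold change of Cdkn2a-high over Cdkn2a-low lines (x axis) and -log10 unadjusted p (y axis); red and blue points are genes whose sets of lines did not overlap, higher and lower in Cdkn2a-high lines. Glt1d1 has the smallest p, and most genes with large fold changes have overlapping sets.

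In 73 genes (0.557% of those tested) every Cdkn2a-high line lay above every Cdkn2a-low line, and in 65 genes (0.496%) below. The 73 include genes that passed the filter on low counts through the Cdkn2a-high lines alone, such as Glt1d1 and Homer2. At a mean of at least 5 CPM in the higher set, 57 genes were higher and 63 lower. Without lines 549 and 688, and without this limit on the mean, the counts were 126 and 122. They depended on single lines too, with 210 and 172 genes without line 524, 144 and 114 without line 115, and 118 and 125 without line 801. For the lower genes alone, the count was over 1.5 times as large without line 136 (116 genes), 517 (100 genes), 505 (104 genes) or 549 (98 genes). None of the genes described next passed the adjusted threshold in edgeR, and their values are given as a description. DESeq2 called some of them in the 12 lines. Its adjusted p was 3.5e-07 for Zbtb22, 9.5e-07 for Homer2, 2.5e-05 for Etfdh and 7.4e-05 for Fosb. Slmo1, with an adjusted p of 0.055 in DESeq2, was not called.

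Etfdh, which hands electrons from fatty acid and amino acid oxidation to ubiquinone, differed little within the high set. It had 55.2, 56.6, 51.9, 55.3 and 52.2 CPM in Cdkn2a-high lines 115, 136, 517, 524 and 801, against a lowest, median and highest value of 24.4, 33.8 and 40.8 CPM in Cdkn2a-low lines (log2 fold change 0.69, SE 0.12, adjusted p = 0.13, edgeR). The sets did not overlap, and line 549 was the nearest low line. Fosb, a subunit of the AP-1 transcription factor, had 13.4, 6.13, 13.5, 14.8 and 9.84 CPM in those high lines, against 1.21, 3.20 and 5.12 CPM as the lowest, median and highest of the Cdkn2a-low lines (log2 fold change 1.82, SE 0.33, adjusted p = 0.15, edgeR). These sets were also apart, with line 136 the lowest of the high lines.

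Larger ratios came from genes of low level in the Cdkn2a-low lines. Homer2, a scaffold protein known from synapses, had 6.35, 38.8, 0.352, 2.95 and 3.14 CPM in Cdkn2a-high lines 115, 136, 517, 524 and 801 and 0 to 0.188 CPM in Cdkn2a-low lines (log2 fold change 6.98, SE 1.25, adjusted p = 0.15, edgeR). The low lines held 16 Homer2 counts in all. Like Glt1d1, Homer2 passed the filter on low counts through the Cdkn2a-high lines alone, so its fold change and p are to be read as a description. Sept3, a septin, had 37.0, 8.80, 14.1, 8.19 and 5.28 CPM in the high lines and 0 to 2.10 CPM in the low lines. Chst10, a sulfotransferase of the HNK-1 sugar, had 2.77 to 14.7 CPM in 4 high lines and 107 CPM in line 524, against 0.168 to 2.26 CPM in Cdkn2a-low lines. Its log2 fold change was 4.88 with all lines and 3.24 without line 524. In each of these 3 genes 1 high line stood well above the other high lines. Myof, a membrane repair protein of the ferlin family, had 2.07 to 10.3 CPM in Cdkn2a-high and 0.0336 to 1.19 CPM in Cdkn2a-low lines. Dusp14, a dual-specificity phosphatase, had 4.56 to 7.76 CPM in the high and 0.0336 to 1.89 CPM in the low lines, and Slmo1 had 10.7 to 21.3 CPM in the high and 0.0336 to 6.00 CPM in the low lines.

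Smaller differences were seen for the remaining named genes that were higher. Snap47, a SNARE protein, had 6.62 to 17.9 CPM in Cdkn2a-high and 1.88 to 4.66 CPM in Cdkn2a-low lines. Cep19, a centrosomal protein, had 8.41 to 10.4 CPM in the high and 2.75 to 5.64 CPM in the low lines. Helq, a helicase of DNA repair, had 32.8 to 49.5 CPM in the high and 23.4 to 29.1 CPM in the low lines. These 3 had log2 fold changes of 1.55 (SE 0.29), 1.02 (SE 0.20) and 0.63 (SE 0.12). Commd2 had 40.9 to 57.3 CPM in Cdkn2a-high and 27.9 to 37.2 CPM in Cdkn2a-low lines, and Glmn, an inhibitor of cullin ubiquitin ligases, had 19.4 to 25.8 CPM in the high and 13.1 to 16.6 CPM in the low lines.

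Of the lower genes, Zbtb22, a zinc finger protein, varied little among the high lines, with 22.9, 27.7, 25.3, 23.9 and 24.1 CPM in Cdkn2a-high lines 115, 136, 517, 524 and 801. Its lowest, median and highest values in Cdkn2a-low lines were 34.0, 37.5 and 46.3 CPM, and the sets were apart (log2 fold change -0.64, SE 0.11, adjusted p = 0.13, edgeR). Rpph1, the RNA component of ribonuclease P, had 4.94, 3.92, 1.90, 4.71 and 2.81 CPM in the high lines, against 8.01, 14.0 and 22.4 CPM as the lowest, median and highest of the low lines (log2 fold change -1.93, SE 0.32, adjusted p = 0.13, edgeR). Npc2, a cholesterol carrier of the lysosome, had 95.4 to 144 CPM in Cdkn2a-high and 144 to 338 CPM in Cdkn2a-low lines. Its sets were separated only by the narrow gap between line 524 (143.6 CPM) and line 504 (144.3 CPM), at a log2 fold change of -1.002 (SE 0.19, adjusted p = 0.17, edgeR).

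Arl10, a small GTPase unrelated to the ARF protein of Cdkn2a, had 1.42 to 4.64 CPM in Cdkn2a-high and 7.30 to 14.9 CPM in Cdkn2a-low lines. Rasa1, which switches off Ras, had 29.6 to 42.4 CPM in the high and 44.7 to 72.0 CPM in the low lines, and Rreb1, a transcription factor that binds Ras-responsive elements, had 35.9 to 56.4 CPM in the high and 61.8 to 89.6 CPM in the low lines. Arl10, Rasa1 and Rreb1 lie on chromosome 13. Zfp628 had 24.4 to 29.0 CPM in Cdkn2a-high and 33.5 to 44.8 CPM in Cdkn2a-low lines, Trak2, an adaptor for the transport of mitochondria, had 92.6 to 106 CPM in the high and 114 to 160 CPM in the low lines, and Gm4430 had 2.50 to 4.72 CPM in the high and 5.96 to 9.98 CPM in the low lines.

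**Figure D3:**
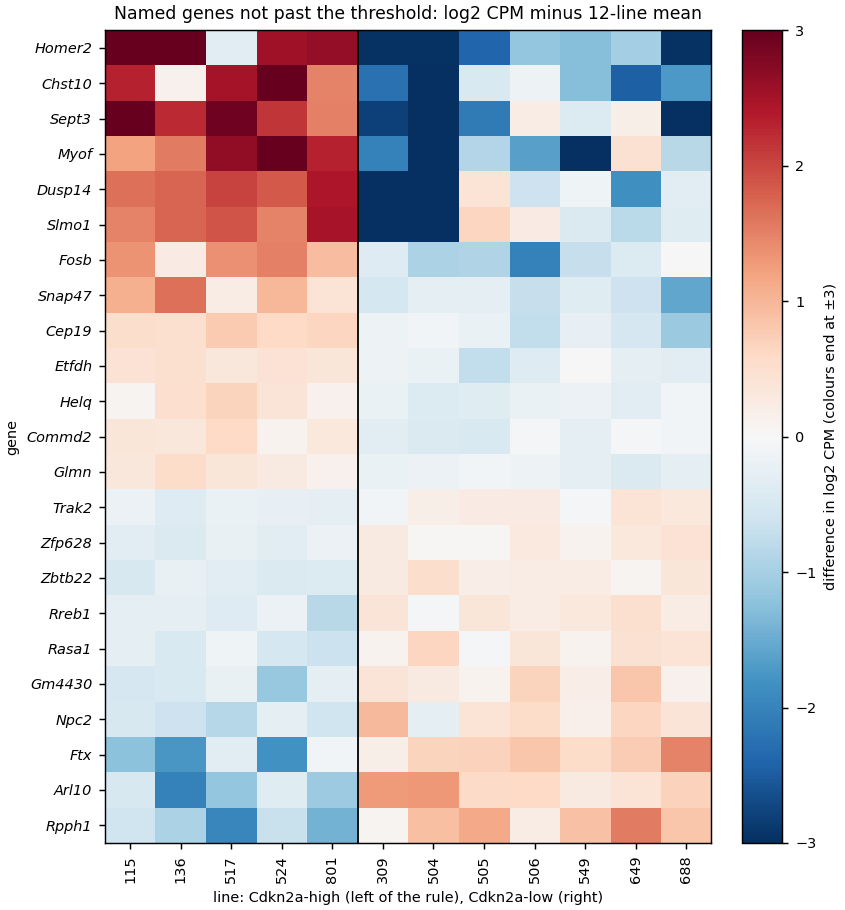
Difference of each line's log2 CPM from the mean of the 12 lines (colour, ended at 3 either way) for the named genes not past the adjusted threshold that had the smallest p or the widest gap between sets; Cdkn2a-high lines are left of the black rule and Cdkn2a-low lines right of it. The 6 genes at the top, Homer2 to Slmo1, differ widely between lines of 1 set, whereas Etfdh and Zbtb22 differ little within each.

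Ftx, a long RNA of the X inactivation centre known to promote Xist, was also apart, with 12.5, 8.70, 23.7, 8.30 and 27.6 CPM in Cdkn2a-high lines 115, 136, 517, 524 and 801 and 33.0, 47.8 and 82.1 CPM as the lowest, median and highest of the Cdkn2a-low lines (log2 fold change -1.65, SE 0.34, adjusted p = 0.23, edgeR). Xist, which silences 1 X chromosome in female cells, did not follow the sets in the same way. It had 58.2 CPM in line 115, 10.4 CPM in line 136 and 0.0586 to 0.332 CPM in lines 517, 524 and 801 of the high set. Of the Cdkn2a-low lines, 504, 506, 549 and 688 had 492.6 to 758 CPM, and 309, 505 and 649 had 0.0331 to 0.481 CPM. The Y-linked gene Ddx3y had 28.2, 115 and 102 CPM in the Cdkn2a-high lines 136, 517 and 524 and 64.4 to 88.4 CPM in the Cdkn2a-low lines 309, 505 and 649, with 0 to 0.670 CPM in the other 6 lines. With Y-linked expression as a second term, chosen after seeing the data, the log2 fold change was -1.59 (p = 0.00053) for Ftx and 0.49 (p = 0.85) for Xist, both unadjusted (edgeR).

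Chromosome 3 held the largest number of higher genes of all chromosomes. Of its 704 tested genes, 104 were higher and 9 lower in Cdkn2a-high lines at an unadjusted p under 0.05. Over all genes tested, 5.92% were higher and 4.89% lower at that limit. The median log2 fold change of chromosome 3 was 0.21. Etfdh and Commd2 lie there. Relative to the mean of the 12 lines, the median gene of chromosome 3 was at 0.06 to 0.26 in the Cdkn2a-high lines, at -0.38 and -0.46 in the Cdkn2a-low lines 309 and 504, at -0.11 in line 505 and at 0.06 to 0.12 in lines 506, 549, 649 and 688. The last 4 low lines thus lay close to or within the range of the high set. On chromosome 13, 11 of 501 genes were higher and 43 lower with a median of -0.15, and its median gene was at -0.79 in line 801 and at 0.01 to 0.17 in the other 11 lines. DNA copy number was not measured, and the part of these chromosomes in the results was not tested.

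**Figure D4:**
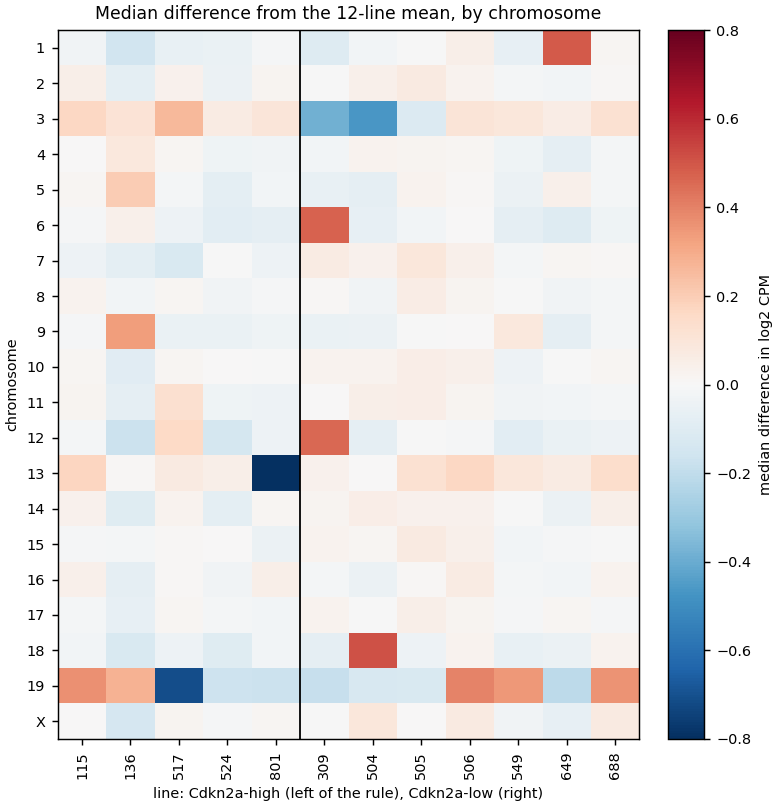
Median over genes of the difference in log2 CPM from the 12-line mean (colour) for each chromosome and line, with Cdkn2a-high lines left of the black rule and Cdkn2a-low lines right of it. Chromosome 3 is low in lines 309 and 504, chromosome 13 in line 801 and chromosome 19 in line 517.

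Genes of B cell maturation had the widest spread. The mature B cell list had a median of 1.62 and 0 of 23 tested genes past the adjusted threshold. At an unadjusted p under 0.05, 9 were higher and 0 lower in Cdkn2a-high lines, against 5.92% and 4.89% of all genes tested. These included Cd74, the chaperone of MHC class II, with 34.1, 7.91, 1204, 4421 and 314 CPM in Cdkn2a-high lines 115, 136, 517, 524 and 801, against 11.9 to 466.2 CPM in Cdkn2a-low lines. Lines 115 and 801 thus lay within the low range, line 136 lay below it, and lines 517 and 524 lay above it. Without line 524, 2 of the list were higher, 0 were lower and the median was -0.22, so the direction of the list rested on that line. Cxcr5, a chemokine receptor of follicular B cells, had 1.34, 2.83, 2.17, 45.0 and 2.48 CPM in the high lines, against 0.369 to 0.951 CPM in the low lines, and these sets were apart (log2 fold change 4.06, SE 0.87, adjusted p = 0.26, edgeR). Without line 524 its log2 fold change was 1.77 (SE 0.33, adjusted p = 0.14, edgeR). Cd40, the receptor for T cell help, had 1.85 to 7.15 CPM in 4 high lines, 89.0 CPM in line 524 and 1.88 to 3.35 CPM in the low lines.

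Of 14 pan-B cell genes, 0 were higher and 3 lower at an unadjusted p under 0.05, against 5.92% and 4.89% of all genes tested. The median of this list was -0.07, with 0 past the adjusted threshold. Cd79b, a signalling chain of the B cell receptor, had 293 to 352 CPM in Cdkn2a-high and 357 to 579 CPM in Cdkn2a-low lines, without overlap. Syk, the kinase that the receptor activates, had 135 to 290 CPM in the high and 279 to 543 CPM in the low lines (log2 fold change -0.77, SE 0.20, adjusted p = 0.29, edgeR). Mzb1, a chaperone of immunoglobulin assembly in the germinal centre and plasma cell list, had 162, 180, 138, 140 and 176 CPM in Cdkn2a-high lines 115, 136, 517, 524 and 801 and 189 to 425 CPM in Cdkn2a-low lines, again apart (log2 fold change -0.82, SE 0.19, adjusted p = 0.26, edgeR). Among progenitor genes, 0 of 13 reached an unadjusted p under 0.05, the median was -0.55, and Vpreb3 had the smallest p (log2 fold change -1.24, SE 0.59).

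The immediate early and heat shock list had a median of 0.79 and 0 of 16 tested genes past the adjusted threshold. At an unadjusted p under 0.05, 6 were higher and 1 lower, against 5.92% and 4.89% of all genes tested. Apart from Fosb, the higher ones were Fos, Egr1, Egr2, Egr3 and Nr4a1, transcription factors induced by receptor signalling. Egr1 had 2.04, 0.461, 13.1, 259 and 29.4 CPM in Cdkn2a-high lines 115, 136, 517, 524 and 801, against 0.856 to 24.5 CPM in Cdkn2a-low lines. Line 524 was far above all others, and without it 1 gene of the list was higher, Fosb, and the median was 0.07.

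Lists of growth and division had medians close to 0. Myc itself had 2720.0, 2716, 1016, 1757 and 1572 CPM in Cdkn2a-high lines 115, 136, 517, 524 and 801 and 464 to 2484 CPM with a median of 1719.5 CPM in Cdkn2a-low lines (log2 fold change 0.33, SE 0.36, adjusted p = 0.78, edgeR). Of 34 MYC targets 0 were higher and 0 lower at an unadjusted p under 0.05 (median 0.05), and Shmt1 had the smallest p. Of 33 DNA replication genes 3 were higher (Orc1, Pole and Rfc4) and 0 lower (median -0.01). Of 25 mitosis genes 2 were higher (Cdc20 and Tpx2) and 0 lower (median 0.07). Tpx2, a spindle assembly factor, had 186 to 253 CPM in Cdkn2a-high and 142 to 197 CPM in Cdkn2a-low lines. None of these genes passed the adjusted threshold.

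**Figure D5:**
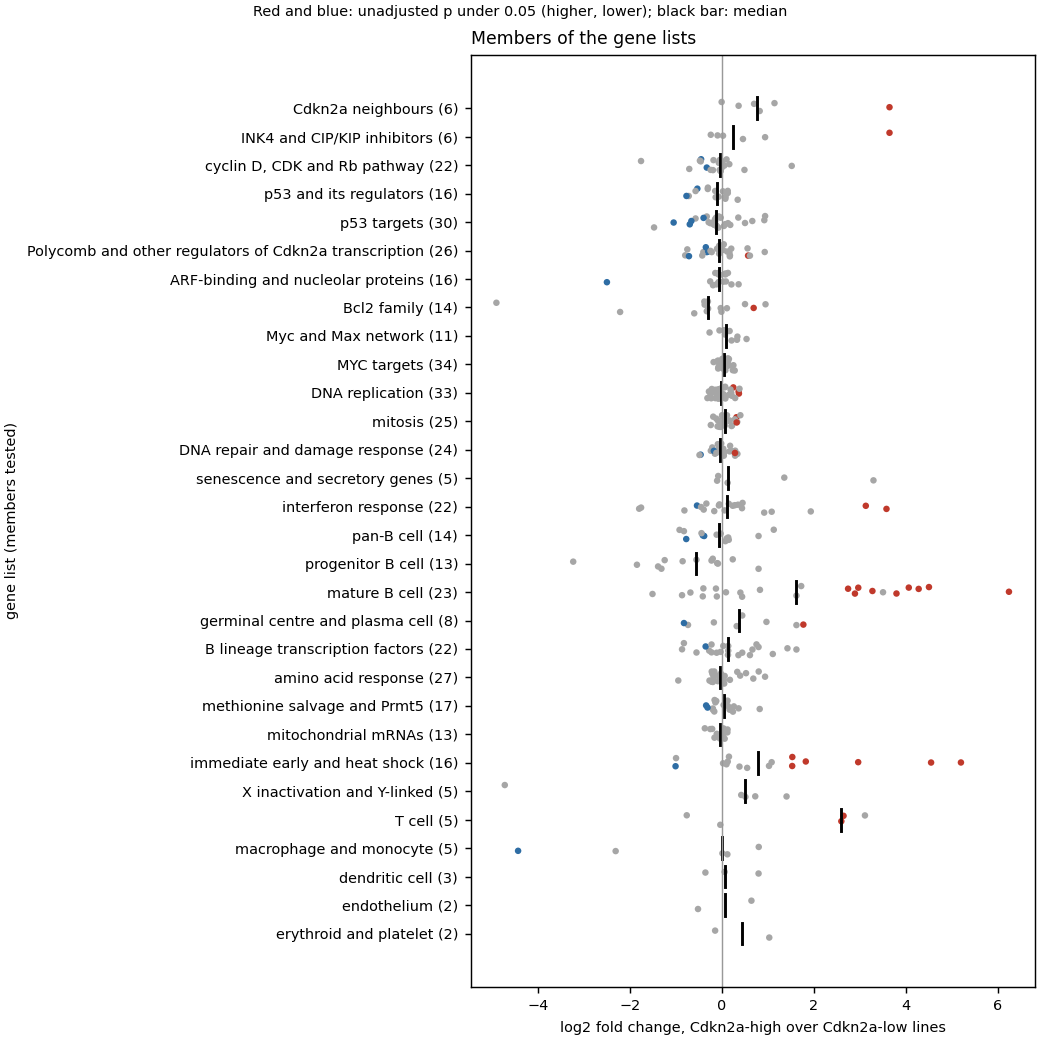
Log2 fold change of Cdkn2a-high over Cdkn2a-low lines for each tested member (points) of the lists with 2 or more tested members, with the list's median as a black bar; red and blue points had an unadjusted p under 0.05, higher and lower. The members with the largest fold changes are in the mature B cell and immediate early lists, the T cell list has the highest median (2.60 over 5 members), and the MYC target, replication and mitosis lists lie close to 0.

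For the remaining lists, 0 members passed the adjusted threshold, and counts are at an unadjusted p under 0.05. Of all genes tested, 5.92% were higher and 4.89% lower at that limit. Of 6 tested neighbours of Cdkn2a, 1 was higher and 0 lower (median 0.76), and of 16 genes of p53 and its regulators 0 were higher and 2 lower (median -0.10). DNA repair had 1 higher and 2 lower of 24 (median -0.03), the interferon response 2 and 1 of 22 (0.11), the Bcl2 family 1 and 0 of 14 (-0.30), ARF-binding proteins 0 and 1 of 16 (-0.06), and the Myc and Max network 0 and 0 of 11 (0.10). B lineage factors had 0 higher and 1 lower of 22 (0.14), germinal centre and plasma cell genes 1 and 1 of 8 (0.38), the methionine list 0 and 2 of 17 (0.04), and secretory genes 0 and 0 of 5 (0.13). The amino acid response had 0 and 0 of 27 (-0.05), mitochondrial mRNAs 0 and 0 of 13 (-0.04), and X inactivation and Y-linked genes 0 and 0 of 5 (0.51). The members with the smallest p were Mlxip of the Myc and Max network (0.17, SE 0.10), Ctbp2 among ARF-binding proteins (-2.50, SE 0.90), Icam1 among secretory genes (1.36, SE 0.73), and Isg15 of the interferon response (3.13, SE 0.85), each as log2 fold change. Isg15 and Icam1 were highest in line 524, at 6.54 CPM and 213 CPM, and without that line their log2 fold changes were 1.14 (SE 0.47) for Isg15 and 0.04 (SE 0.56) for Icam1. Mcl1, a survival factor of the Bcl2 family, had 331, 455, 497, 931 and 460 CPM in Cdkn2a-high lines 115, 136, 517, 524 and 801 and 218 to 402 CPM in Cdkn2a-low lines (0.69, SE 0.25, adjusted p = 0.37, edgeR). Line 115 lay within the range of the low lines, and without line 524 the log2 fold change was 0.39 (SE 0.20). Foxp1 led the B lineage factors (-0.35, SE 0.15), Gpt2 the amino acid response (0.80, SE 0.51), Ahcy the methionine list (-0.34, SE 0.12) and mt-Co2 the mitochondrial mRNAs (-0.37, SE 0.26).

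Markers of other cell types were mostly near 0, with exceptions in single lines. The endothelial list summed to 565 CPM in line 504, against at most 74.3 CPM in Cdkn2a-high lines. In line 309, the erythroid and platelet list summed to 81.7 CPM and the NK list to 31.4 CPM. These 2 lists reached at most 5.57 and 5.24 CPM in Cdkn2a-high lines. The NK, neutrophil and stroma lists had 0 genes that passed the filter on low counts. In the T cell list, Cd3e and Cd4 had 0 counts in all 12 lines, and the list's summed level was 20.1 to 151 CPM in Cdkn2a-high and 13.2 to 108 CPM in Cdkn2a-low lines. Lck, a kinase of T cells that B-lineage cells can also express, had 4.12, 11.6, 8.56, 37.9 and 26.5 CPM in Cdkn2a-high lines 115, 136, 517, 524 and 801, against 0.638 to 7.32 CPM in Cdkn2a-low lines (log2 fold change 2.64, SE 0.66, adjusted p = 0.27, edgeR). The sets overlapped because line 115 lay below lines 549 and 649. The T cell list had 2 higher and 0 lower of 5 tested with a median of 2.60, the macrophage list 0 and 1 of 5, and the dendritic cell (3 tested), endothelial (2) and erythroid (2) lists 0 and 0. Without lines 549 and 688, the T cell list had 1 higher and 0 lower of 4 tested, with a median of 0.96. Macrophage genes summed to 5.11 to 20.4 CPM in Cdkn2a-high and 9.08 to 76.4 CPM in Cdkn2a-low lines, with Fcgr3 at 40.3 CPM in line 309 and 9.97 CPM in line 504. Flt3, Pecam1 and Itga2b had the smallest p of the dendritic cell, endothelial and erythroid lists, at log2 fold changes of 0.80 (SE 0.46), -0.52 (SE 0.31) and 1.03 (SE 0.53).

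The 2 lymphomas grown from the Cdkn2a-low line 506 were not part of the comparison, and with 1 library each they are given as values. The asparaginase lymphoma had 0.0990 CPM of Cdkn2a (3 counts) and 1.58 CPM of Mtap, and the vehicle lymphoma had 0.315 CPM of Cdkn2a (10 counts) and 2.65 CPM of Mtap. Line 506 in culture had 0 and 1 count of these genes. The labels name lymph node tissue of the host, and the part of host cells in these values was not tested. Glt1d1 had 0 counts in both lymphomas. Mdm4 had 348 CPM in the asparaginase and 285 CPM in the vehicle lymphoma, within the range of the Cdkn2a-low lines. Other genes with separate sets went both ways. Arl10 also lay within the range of the Cdkn2a-low lines in both lymphomas. Etfdh and Npc2 did so only near its edge in the vehicle lymphoma. Etfdh had 24.385 CPM there, against 24.357 CPM in the lowest low line. Npc2 had 332 CPM there, against 338 CPM in the highest low line. Outside that range were Myof (21.6 CPM in the asparaginase and 16.9 CPM in the vehicle lymphoma), Helq (51.2 and 38.2 CPM) and Rpph1 (2.74 and 2.21 CPM). These 3 lay within or beyond the range of the Cdkn2a-high lines.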

How the data were processed

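RNA of 12 cultured lines and 2 lymphomas was sequenced after a stranded mRNA library kit with paired ends, per the labels' protocols. STAR 2.4.0, featureCounts and Subread 1.5.0-p3 are listed per the submitters' processing notes, with the builds mm10 and GRCm38. The deposited table holds whole-number counts per gene, not normalized by the authors, and the counting's strand setting is not given in the sources used here. All columns matched a sample, with 0 left over. The 46959 gene entries were used, and 100 spike-in and phage entries were left out (0 spike-in and 5 to 534 phage counts per library). Total counts were 24597230 to 32614751 per line. Gene symbols that had been turned into dates were restored from GENCODE coordinates.

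The sets, gene lists, tests and named genes were chosen with earlier results of these data known. Counts were fitted with edgeR 4.0.16 (filterByExpr, TMM, glmQLFit, glmQLFTest) in R 4.3.3, for 5 against 7 lines (10 residual degrees of freedom) and 5 against 5 (8), without Cdkn2a. Adjusted p-values follow Benjamini and Hochberg over all genes tested, with a threshold of 0.05. The procedure was tested on simulated data. Log2 CPM used a prior count of 2. DESeq2 1.42.0, other scalings and filters, robust dispersion, Cdkn2a level as covariate and each line left out were alternatives. Depth was compared by exact permutation (scipy 1.17.1). Intervals and the floor of 3 counts cover counting error only, since the labels name no molecular identifiers.

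Named genes were a fixed set of the locus, p53, Rb and Polycomb genes, Myc and Xist, the 10 genes each way past the threshold or with the smallest p at a mean of at least 5 CPM, the 5 widest gaps each way, and 1 gene per list, some of which are not reported here. Glt1d1, Ccdc92, Wrap53, Klhl9, Focad, Ddx3y, Cd74, Cd40 and other list members with an unadjusted p under 0.05 were named after their values were seen. The 33 lists held 628 genes, of which 621 were in the table.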

Additional observations from a re-analysis of the deposited data

Results flagged for a closer look

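Within the sets, 6 of 80 groups of values held a line far from the others of its set on the log2 scale, and chance flags about 1 in 20. In the Cdkn2a-high set, line 524 was low for Trp53 (0.0703 CPM) and Cdk6 (6.57 CPM). In the Cdkn2a-low set, line 649 was high for Mdm4 (364 CPM), line 549 was low for Ccng1 (38.9 CPM), line 688 was low for Snap47 (1.88 CPM), and line 505 was the 1 line with a Glt1d1 count (0.0331 CPM).

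Outside the comparison, Cdkn2a had 0.315 CPM in the vehicle lymphoma, and Mtap had 1.58 CPM in the asparaginase and 2.65 CPM in the vehicle lymphoma, whereas their line of origin had 0 and 1 count.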

How the results depend on the processing

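The calls were few and close to the threshold. For the 12 lines, both counts (1 higher, 1 lower) fell to 0 with RLE size factors, total counts, no filter, a mean of at least 5 CPM (where Glt1d1 is not tested), without lines 549 and 688, and, both chosen after seeing the data, without lines 506, 549 and 688 or without lines 517 and 524. With Y-linked expression as a term, also chosen later, 0 were lower. DESeq2 called 108 higher and 96 lower with 12 lines, and 72 and 51 with 10 lines, and the cause of its difference from edgeR was not tested. Leaving out 1 line gave 0 to 2 higher and 0 to 1 lower genes with 12 lines, and 0 to 1 higher and 0 to 0 lower with 10. Genes with separate sets numbered 126 higher and 122 lower without lines 549 and 688, 38 lower with total counts, and 80 to 210 higher and 71 to 172 lower with 1 line left out, where fewer lines separate more easily. Of 64 named genes tested, 57 kept their sign in every alternative run. The sign reversed for Mdm2 (-0.034 without lines 506, 549 and 688, -0.11 without lines 517 and 524, -0.041 to 0.11 with 1 line left out), Cdkn1a (-2.44 without lines 517 and 524, -0.52 to 1.82), Rb1 (-0.0017 without a filter, -0.20 to 0.19), Ccnd2 (-1.16 to 0.84), Ezh2 (-0.20 to 0.023), Xist (0.49 with the Y-linked term) and Icam1 (-0.29 without lines 517 and 524), none of which passed the threshold in the 12 lines. No paired analysis was possible because each line is 1 library of its own mouse and the labels share no replicate numbers between the sets. Depth limits Glt1d1, Cdkn2b, Cdkn1a and Homer2, which rest on few counts in at least 1 set.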
